A study of Homo sapiens with 16 samples.

Results

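Histidine depletion in the presence of the solvent DMSO was examined as the difference between 4 arrays titled DMSO-His and 4 titled DMSO-DMEM, which are 8 of the 16 arrays of the series. The arrays carried RNA from HepG2, a human hepatoma cell line that keeps many hepatocyte genes active. All cultures had been grown in DMEM with non-essential amino acids, glutamine and 10% fetal bovine serum. Cells were treated with DMSO for 1 h and then kept for 8 h either in complete medium or in medium without histidine, with DMSO still present, and each condition comprised 4 independent incubations. DMSO was therefore common to both groups, and all cells were of 1 line. The other 8 arrays received the MEK inhibitor PD98059 at 2.5 uM (the unit in the labelling protocol, while the sample descriptions print it as M) in place of DMSO alone and served here to estimate the spread and as a second depletion response. The comparison covered all 22464 named genes, 1 row per single gene symbol, and a change is given as the log2 difference of array values, no histidine minus complete medium.

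Histidine is an essential amino acid, and its lack leaves tRNA uncharged. Uncharged tRNA activates the kinase GCN2, encoded by EIF2AK4, which phosphorylates the initiation factor eIF2, slows general translation and favours translation of the transcription factor ATF4. ATF4 pairs with C/EBP and other ATF proteins on composite sites named CARE and switches on transporters, synthetic enzymes, tRNA synthetases and stress regulators, a programme called the amino acid response.

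Array medians lay between 6.20 and 6.28, arrays of a group correlated at 0.996 to 0.998 across all rows, and no array was identical to another. The 8 DMSO arrays deviated from their group means by a root mean square of 0.0496 to 0.0662, whereas 1 PD98059 array without histidine, replicate 3, stood apart at 0.111 and enters the DMSO comparison only through the estimate of the spread. In complete medium ALB averaged 12.93 and AFP 12.47 and PTPRC, the pan-leukocyte marker, averaged 3.91. LYZ, listed as a leukocyte marker, was bright at 13.33 and fell by 0.17. Of the 5 measured stellate and fibroblast markers 1 rose, PDGFRB by 0.49 from 7.96, and of the 5 endothelial markers 1 was called, KDR at 0.08, a call that was lost without any of 6 single arrays, and the other 4 markers of each list were not called. As the arrays measured bulk RNA, fewer cells with a transcript and less transcript per cell cannot be told apart.

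In all, 7475 genes were called at an adjusted p under 0.05 (limma, Benjamini-Hochberg), 33.3% of those tested, with 3333 higher (14.8%) and 4142 lower (18.4%). Changes were mostly small. A change of at least 1.5-fold was found for 425 called genes (1.89%), 262 upward (1.17%) and 163 downward (0.726%), and at least 2-fold for 85 upward and 16 downward. The groups' arrays did not overlap for 41.4% of genes. Calls depended on brightness: with genes split into 5 equal groups by level in complete medium, the shares called higher were 5.14%, 8.95%, 13.2%, 22.5% and 24.3% from the dimmest group to the brightest and the shares called lower 2.31%, 7.43%, 15%, 29.3% and 38.2%. For a list of mostly bright genes the shares of the brightest group, 24.3% higher and 38.2% lower, are therefore the nearer background. The median change was 0.0262 over all genes and -0.039 in the brightest group.

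EGR1, an immediate-early zinc finger transcription factor, had values of 7.95, 7.78, 8.01 and 7.92 in complete medium and 11.43, 11.48, 11.36 and 11.46 without histidine. The gap between the groups was far wider than the spread within either, and the gene rose by 3.52 ± 0.0476 (SE of the fit; 11.5-fold, adjusted p = 6.83e-17). SLC22A15, an organic solute carrier, had 6.15, 5.98, 6.14 and 6.12 in complete medium and 8.37, 8.52, 8.13 and 8.33 without histidine, with no overlap and a rise of 2.24. ERN1 encodes IRE1 alpha, the endoplasmic reticulum stress sensor that splices XBP1 mRNA. Its values were 8.01, 7.92, 8.03 and 8.00 in complete medium against 10.14, 10.16, 9.94 and 9.99 without histidine, a rise of 2.07 ± 0.0531 with all depleted arrays above all controls. The other genes among the 12 highest were the chemokine CXCL8 at 2.12, TCIM at 2.07, asparagine synthetase ASNS at 1.98, the activin subunit INHBE at 1.97, the arrestin-domain gene ARRDC4 at 1.96, SESN2 at 1.96, SLC7A11 at 1.91, DDIT4 at 1.87 and cystathionine gamma-lyase CTH at 1.86.

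The 12 lowest genes were of mixed function. HSPA1A, an inducible HSP70, had 11.25, 11.27, 11.32 and 11.31 in complete medium and 9.62, 9.67, 9.66 and 9.71 without histidine and fell by 1.62. It has a near-identical copy, so its own share of the signal is uncertain. KCNQ1OT1, an imprinted antisense long noncoding RNA, fell by 1.39. The kinetochore gene CENPI fell by 1.31 and the zinc finger gene ZNF483 fell by 1.15. Sterol genes followed with HSD17B7 at -1.23, whose pseudogene copies make it uncertain, HMGCS1 at -1.22, MSMO1 at -1.12 and LSS at -1.10. The protease gene FAM111B fell by 1.08, SMLR1 fell by 1.07, the organic anion carrier SLCO4C1 fell by 1.07, and FKBP14, a prolyl isomerase of the endoplasmic reticulum, fell by 1.07. For all 24 genes the 4 depleted arrays lay on 1 side of the 4 controls, which the rule that named them required.

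**Figure D1:**
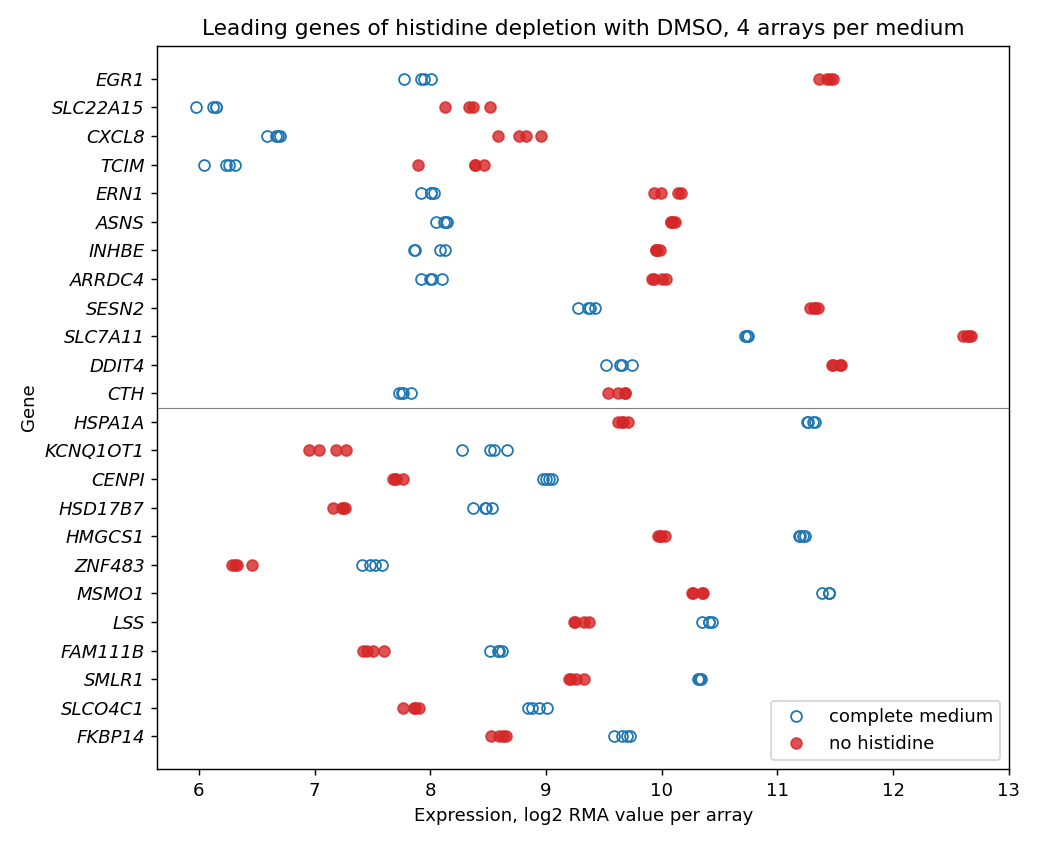
Log2 RMA value (x axis) of the 12 highest and 12 lowest named genes (y axis, separated by the grey line), with open blue circles for the 4 arrays in complete medium and filled red circles for the 4 arrays without histidine. EGR1 moves farthest, from 7.78 to 8.01 up to 11.36 to 11.48, and in TCIM 1 depleted array lies below the other 3.

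The amino acid response list held regulators and stress effectors, and 21 of its 26 measured members rose, 3 fell and 2 were not called (median 0.89). ATF4 itself, which is regulated mainly through translation, went from 10.76, 10.70, 10.75 and 10.75 to 11.13, 11.13, 11.11 and 11.16, a rise of 0.40 on already bright arrays with no overlap. Among its dimerization partners CEBPG rose by 0.88, CEBPB by 0.54, ATF3 by 1.18, DDIT3 (CHOP) by 1.42 and JDP2 by 0.50. CEBPA at -0.01 (adjusted p = 0.897) and CEBPD at 0.00 (adjusted p = 0.949) were not called. The pseudokinases TRIB3 and TRIB1, which scaffold protein degradation, rose by 1.10 and 1.39. The growth arrest gene GADD45A rose by 1.45, the antiproliferative gene BTG1 by 0.70, the stress cofactor NUPR1 by 0.66 and the glutathione-cleaving enzyme CHAC1 by 0.90. Secreted or surface products rose as well, with VLDLR, the very low density lipoprotein receptor, at 1.57, GDF15 at 1.23, STC2 at 1.11, VEGFA at 1.01 and FGF21, a hepatic starvation hormone, at 0.34.

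The sestrins, leucine-binding or stress-induced inhibitors upstream of mTORC1, moved apart. SESN2 had 9.36, 9.27, 9.42 and 9.38 in complete medium and 11.32, 11.35, 11.28 and 11.32 without histidine, a rise of 1.96 ± 0.0381. SESN1 had 8.15, 8.06, 8.14 and 8.11 and 7.37, 7.41, 7.42 and 7.45 in the same order and fell by 0.70 ± 0.0516 (adjusted p = 1.77e-08). SESN3 fell by 0.13 (adjusted p = 0.00156). Neither SESN1 nor SESN2 had overlapping groups. DDIT4 (REDD1), which restrains mTORC1 through TSC2, rose by 1.87, and the translation repressor EIF4EBP1, an mTORC1 substrate, by 0.44. Across the 29 measured genes of amino acid sensing at mTORC1, which include SESN1, SESN2 and DDIT4, 6 rose (20.7%), 12 fell (41.4%) and 11 were not called. Of all genes 14.8% rose and 18.4% fell. In the brightest group, which held 13 of the 29, the shares were close to those of the list, at 24.3% and 38.2%. CASTOR2, a paralogue of the arginine sensor, fell by 0.58, SAMTOR, the S-adenosylmethionine sensor, fell by 0.36, FNIP2 fell by 0.36, the GTPase regulator TSC1 fell by 0.26 and LAMTOR5 fell by 0.24. The kinase gene RPS6KB1 rose by 0.27 and RPTOR by 0.17.

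All 4 eIF2 kinase genes fell: EIF2AK3 (PERK) at -0.45, EIF2AK4 (GCN2) at -0.40, EIF2AK2 (PKR) at -0.27 and EIF2AK1 (HRI) at -0.22, and GCN1, the GCN2 activator, was lower at -0.24. EIF2AK4 had 10.05, 10.03, 10.04 and 10.04 in complete medium and 9.65, 9.68, 9.63 and 9.60 without histidine, so the transcript of the kinase that senses uncharged tRNA was lower on all 4 depleted arrays than on any control. The phosphatase subunits that reverse eIF2 phosphorylation rose, PPP1R15A (GADD34) by 1.65 and PPP1R15B by 0.77. The eIF2 subunits EIF2S1 and EIF2S2 rose by 0.22 and 0.21, and EIF2S3 was at 0.07 (adjusted p = 0.0955). The exchange factor subunits did not move together: EIF2B1 fell by 0.39 and EIF2B2 rose by 0.17, while EIF2B3 was at -0.00 (adjusted p = 0.932) and EIF2B4 at -0.01 (adjusted p = 0.692). Of the 16 genes measured 6 rose (37.5%) and 7 fell (43.8%), against 24.3% and 38.2% in the brightest group, which held 12 of them.

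Enzymes that make amino acids and one-carbon units rose in 12 of 19 cases (63.2%) and fell in 5, and 12 were in the brightest group. ASNS had 8.14, 8.05, 8.12 and 8.14 in complete medium and 10.12, 10.08, 10.08 and 10.10 without histidine, and CTH had 7.83, 7.73, 7.77 and 7.75 and 9.68, 9.68, 9.53 and 9.63. Both rises exceeded the within-group range many times over. The mitochondrial folate enzymes MTHFD2 and ALDH1L2 rose by 1.24 and 1.16, PCK2, the mitochondrial PEP carboxykinase, by 1.08 and the cytosolic aspartate aminotransferase GOT1 by 0.75. The cytosolic folate enzymes SHMT1 and MTHFD1 went the other way, at -0.37 and -0.31. Glutamine synthetase GLUL fell by 0.47 and the proline pathway enzyme ALDH18A1 fell by 0.30. PYCR3 was at -0.03 (adjusted p = 0.494) and the alanine aminotransferase GPT at 0.12 (adjusted p = 0.0539).

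Amino acid transporters rose in 14 of 30 cases (46.7%), fell in 2 (6.67%) and were not called in 14. In the brightest group, which held 15 of them, 24.3% rose and 38.2% fell. SLC7A1, a carrier of cationic amino acids that include histidine, had 10.00, 9.95, 10.07 and 10.01 in complete medium and 11.15, 11.23, 11.10 and 11.19 without histidine, a rise of 1.16. The cystine carrier SLC7A11 rose by 1.91, the glycine carrier SLC6A9 by 0.92, the glutamine carrier SLC1A5 by 0.80, the branched-chain and aromatic carrier SLC43A1 by 0.67 and the cationic carrier SLC7A2 by 0.65. The proton-coupled carriers SLC36A4 and SLC36A1, at -0.22 and -0.08, were the 2 called lower, and without replicate 3 in complete medium or replicate 1 without histidine the count was 1. SLC38A7 was at -0.08 (adjusted p = 0.0669), SLC43A2 at 0.09 (adjusted p = 0.0666), SLC7A6 at 0.06 (adjusted p = 0.11) and SLC1A2 at 0.07 (adjusted p = 0.115).

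Genes that handle histidine itself moved little. The cytosolic histidyl-tRNA synthetase HARS1 had 9.98, 9.90, 9.94 and 9.93 in complete medium and 10.14, 10.14, 10.07 and 10.11 without histidine, a rise of 0.17, and its mitochondrial counterpart HARS2 fell by 0.08. Histidine ammonia-lyase HAL, the first enzyme of breakdown, was at 0.11 (adjusted p = 0.133). Of the later enzymes UROC1 was at 0.06 (adjusted p = 0.263), AMDHD1 fell by 0.11 and FTCD fell by 0.27. The dipeptidase CNDP2 rose by 0.08. Histidine decarboxylase HDC was at 0.07 (adjusted p = 0.169), histamine methyltransferase HNMT at 0.05 (adjusted p = 0.276), the carnosine synthase CARNS1 at 0.06 (adjusted p = 0.32) and the carnosinase CNDP1 at 0.02 (adjusted p = 0.686). In all 2 of 11 rose and 3 fell, beside 14.8% and 18.4% of all genes. These calls were marginal: leaving out single arrays gave counts of 1 to 3 higher and 1 to 3 lower, and HARS2, AMDHD1 and CNDP2 each lost the call without several arrays, while HARS1 and FTCD did not.

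In the urea cycle NAGS, which makes the activator of the first step, rose by 0.48, the mitochondrial arginase ARG2 by 0.33 and ASS1 by 0.16. ASL rose by 0.10. The hepatic arginase ARG1 fell by 0.23, CPS1 fell by 0.16, and OTC was at 0.05 (adjusted p = 0.293).

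Cytosolic and mitochondrial tRNA synthetases were counted separately. Of 19 cytosolic enzymes 14 rose and 3 fell (median 0.35), whereas of 16 mitochondrial enzymes 3 rose and 9 fell (median -0.10), and the brightest group held 17 and 8 of them. CARS1 had 8.12, 8.05, 8.15 and 8.12 in complete medium and 9.11, 9.18, 9.11 and 9.06 without histidine, a rise of 1.01 with no overlap. SARS1 rose by 0.91, MARS1 by 0.87, GARS1 by 0.83, YARS1 by 0.76 and TARS1 by 0.73. The enzymes for arginine, glutamine and lysine fell, RARS1 at -0.20, QARS1 at -0.18 and KARS1 at -0.08, and the phenylalanine subunits FARSB at -0.06 (adjusted p = 0.12) and FARSA at -0.00 (adjusted p = 0.999) were not called. Of the mitochondrial enzymes RARS2 fell by 0.37, TARS2 fell by 0.21 and AARS2 fell by 0.17, while MARS2 rose by 0.32 and WARS2 by 0.14. The difference between the lists was not tested.

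**Figure D2:**
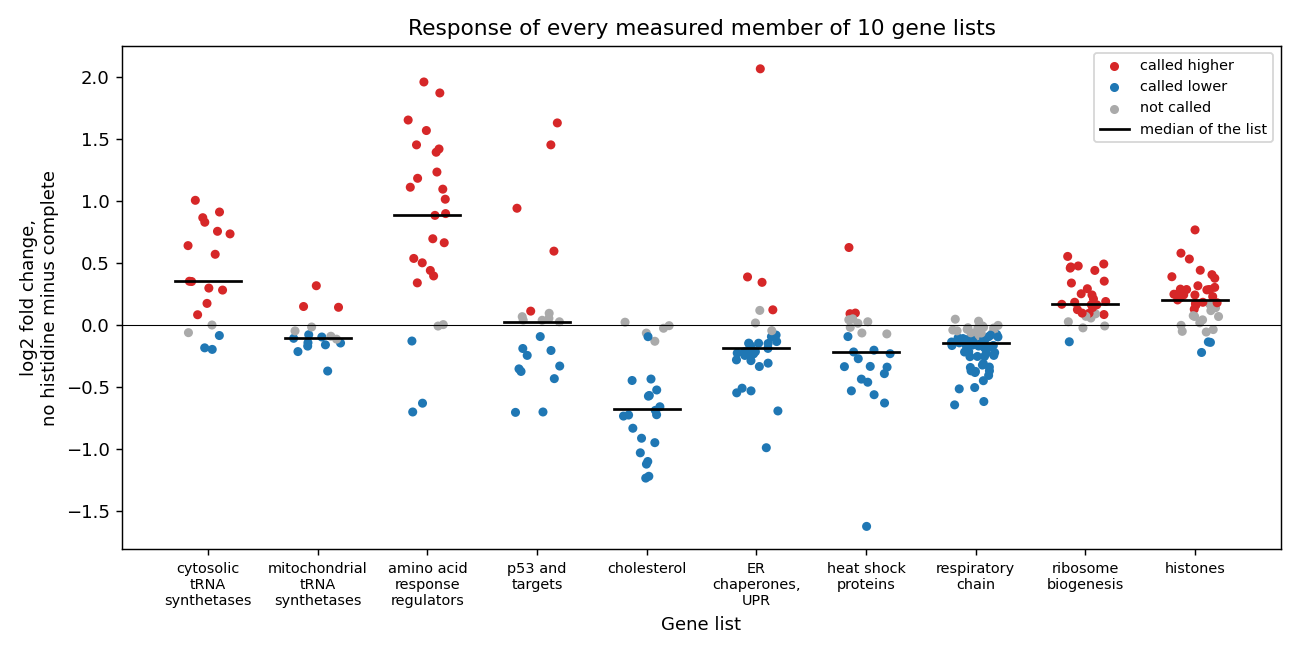
Log2 fold change, no histidine minus complete (y axis), of every measured member of 10 gene lists (x axis), each point 1 gene, red if called higher, blue if called lower and grey if not called, with a black line at the list's median. Amino acid response regulators lie mostly above 0 and cholesterol genes near or below it, and ERN1 and HSPA1A stand apart from the other members of their lists.

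To show sequence near these genes, promoter windows of 300 bases, 250 before and 50 after the transcript start, were taken from RefSeq (GRCh38.p14) and searched on both strands for TGATGNAA, the core of the CARE site, where N is any base. Windows were matched for 15247 of the genes and the core was in 407 of them (2.67%). Among cytosolic tRNA synthetases it was in 6 of 16 windows (37.5%), among amino acid transporters in 4 of 22 (18.2%), among response regulators in 3 of 19 (15.8%) and among synthetic enzymes in 2 of 13 (15.4%). Of the genes called at least 2-fold higher 5 of 64 had it (7.81%), and it was in 0 of 123 called at least 1.5-fold lower and in 0 of 22 cholesterol genes. The stretches with the core in capitals, read 5′ to 3′ on the strand that carries it, are shown for 11 genes of amino acid supply and response that carry it and rose. The core was also in the windows of FGF21, SLC3A2 and SLC38A1, which rose by 0.34, 0.59 and 0.41, and of the glutamate carrier SLC1A3, which was at 0.02 (adjusted p = 0.619), and these are not shown. A match is a description of the letters only.
ASNS, chr7:97872459-97872486, minus strand: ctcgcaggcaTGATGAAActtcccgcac
CARS1, chr11:3057408-3057435, plus strand: tcctagaatcTGATGCAAccgccgcccc
MARS1, chr12:57488054-57488081, minus strand: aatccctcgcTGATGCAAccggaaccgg
AARS1, chr16:70289676-70289703, plus strand: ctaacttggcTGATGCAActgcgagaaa
TARS1, chr5:33440957-33440984, minus strand: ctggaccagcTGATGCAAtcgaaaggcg
IARS1, chr9:92293693-92293720, plus strand: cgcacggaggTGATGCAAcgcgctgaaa
NARS1, chr18:57621805-57621832, minus strand: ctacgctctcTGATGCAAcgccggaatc
GOT1, chr10:99430805-99430832, plus strand: ctgccgagaaTGATGCAAccaatgcaat
SLC7A1, chr13:29595664-29595691, minus strand: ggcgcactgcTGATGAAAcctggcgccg
ATF3, chr1:212565206-212565233, plus strand: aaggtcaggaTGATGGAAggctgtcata
CHAC1, chr15:40953252-40953279, minus strand: ctggcaggagTGATGCAAcggcagggga
The 6 synthetase genes with the core changed by 1.01 (CARS1), 0.87 (MARS1), 0.64 (AARS1), 0.73 (TARS1), 0.35 (IARS1) and 0.30 (NARS1), and SARS1, GARS1 and YARS1 rose by 0.91, 0.83 and 0.76. AARS1, IARS1 and NARS1, like the genes with a core that are not shown, are named for the core and were chosen after their values were seen.

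Immediate-early genes, which are transcribed within minutes of growth factor or stress signalling and often through ERK and the factors SRF and AP-1, rose in 15 of 23 cases. IER3 rose by 1.44, the matricellular gene CCN1 by 1.29, the survival gene MCL1 by 1.24 and the GTPase gene RHOB by 1.02. SGK1, a serum-induced kinase, went from 7.56, 7.50, 7.52 and 7.52 to 6.88, 6.92, 6.87 and 6.93 and fell by 0.63, the only member that fell. ARC at 0.12 (adjusted p = 0.0825), GEM at 0.14 (adjusted p = 0.091), NR4A3 at 0.07 (adjusted p = 0.117) and IER5L at 0.10 (adjusted p = 0.0811) were not called. Of 17 AP-1 and related factors 11 rose and 0 fell. JUNB went from 8.80, 8.93, 8.85 and 8.97 to 10.64, 10.73, 10.77 and 10.75, a rise of 1.84, and JUN from 8.76, 8.68, 8.80 and 8.80 to 10.57, 10.51, 10.55 and 10.43, a rise of 1.75. Both groups of arrays were clear of each other for both genes. FOSL1 rose by 0.85 and FOS by 0.68, and FOSB was at 0.10 (adjusted p = 0.0941).

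CArG boxes, the sites of SRF, were searched as CC, 6 bases that are each A or T, and GG. They were in 186 of the 15247 windows (1.22%) and in 2 of 14 immediate-early windows (14.3%), those of EGR1 and of SRF itself. EGR1 carried 2 such boxes, and they are shown in capitals because it was the gene with the largest rise named here. The pattern is its own reverse complement, so a match lies on both strands, and the boxes are read on the strand of the gene.
EGR1 upstream box, chr5:138465364-138465393, plus strand: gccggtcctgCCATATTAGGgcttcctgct
EGR1 downstream box, chr5:138465386-138465415, plus strand: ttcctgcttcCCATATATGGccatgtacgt
Only 1 of the 64 genes called at least 2-fold higher with a window held such a box (1.56%), and that gene was EGR1.

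Of 19 Sprouty, Spred, PEA3 and other ERK output genes 16 rose and 0 fell. The cytokine gene LIF rose by 1.52, the receptor tyrosine kinase gene EPHA2 by 1.30, SPRY4 by 1.20, the TWEAK receptor TNFRSF12A by 1.10, SPRY1 by 0.92 and PHLDA1 by 0.88. ETV1, PLAUR and EPHA4 were at 0.03 (adjusted p = 0.53), 0.06 (adjusted p = 0.138) and 0.07 (adjusted p = 0.0678). Dual specificity phosphatases, which switch off MAP kinases, rose in 6 of 10 cases. DUSP1 rose by 1.44, DUSP6 by 1.20 and DUSP16 by 0.79, while DUSP7 fell by 0.19. Of the EGF family, the ligands EREG and HBEGF rose by 1.51 and 0.90 and the receptor inhibitor ERRFI1 by 0.97, and EGF, NRG1, BTC and NRG2 were among the 9 of 13 not called. In this family 4 rose (30.8%) and 0 fell, beside 14.8% and 18.4% of all genes, of which 33.3% were called. Of 12 adaptor, RAS, RAF, MEK and ERK genes 3 rose and 3 fell, with MAPK3 (ERK1) at -0.17 and the adaptor SHC1 at 0.18. These shares, 25% each, did not stand out from the 24.3% higher and 38.2% lower of the brightest group, which held 10 of the 12. KLF factors rose in 10 of 16 cases and none of the 16 was called lower, with KLF6 at 1.29, KLF10 at 1.24 and KLF5 at 0.89.

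Of 17 NF-kB genes and targets 13 rose and 0 fell. The feedback deubiquitinase TNFAIP3 rose by 1.02, the adhesion receptor ICAM1 by 0.81, the subunits NFKB1 and RELB by 0.43 and 0.39 and the inhibitor NFKBIA by 0.36. CXCL8 had 6.67, 6.59, 6.70 and 6.69 in complete medium and 8.96, 8.83, 8.77 and 8.59 without histidine, and CCL20 had 10.19, 9.97, 10.12 and 10.16 and 11.63, 11.58, 11.46 and 11.55. These rose by 2.12 and 1.44, CXCL2 by 0.30, CX3CL1 fell by 0.44, and 11 of 18 chemokines were not called, among them CCL2 at 0.12 (adjusted p = 0.0539) and CCL5 at 0.06 (adjusted p = 0.208). Of the 18 chemokines 6 rose (33.3%) and 1 fell (5.56%), beside 14.8% and 18.4% of all genes. In the IL-6 family IL11 rose by 0.43 and the suppressor SOCS2 by 0.34, and IL6 was at 0.05 (adjusted p = 0.378). TGF-beta family members included INHBE, which had 7.86, 7.87, 8.13 and 8.08 in complete medium and 9.96, 9.95, 9.95 and 9.98 without histidine. Its relative INHBC, also a liver activin subunit, fell by 0.47 and had 8.48, 8.32, 8.34 and 8.36 and 7.84, 7.93, 7.90 and 7.95 in the same order. The activin antagonist FST rose by 0.72, the SMAD corepressor SKIL by 0.96, ID1 by 0.47 and TGFB1 by 0.43, whereas SMAD6 fell by 0.29.

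Genes of the p53 list did not move as 1 group: 5 of 21 rose (23.8%) and 10 fell (47.6%). In the brightest group, which held 9 of them, 24.3% rose and 38.2% fell, and of all genes 14.8% and 18.4%. DDB2, a DNA damage recognition gene, had 10.14, 10.07, 10.16 and 10.15 in complete medium and 9.38, 9.47, 9.43 and 9.42 without histidine and fell by 0.70 with no overlap. TRIAP1 fell by 0.43, ZMAT3 fell by 0.37, CCNG1 fell by 0.35 and TP53INP1 fell by 0.33. The BH3-only gene PMAIP1 (NOXA) had 7.59, 7.72, 7.63 and 7.56 and 9.31, 9.35, 9.18 and 9.19 in the same order and rose by 1.63. GADD45A, also in this list, rose by 1.45, the kinase PLK3 by 0.94 and the death receptor TNFRSF10B by 0.60. Whether p53 took part in any of these changes was not tested. MDM2 was at 0.05 (adjusted p = 0.217) and CDKN1A (p21) at 0.09 (adjusted p = 0.0618).

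Of 15 BCL2 family genes 5 rose (33.3%), some of opposite function, 4 fell (26.7%) and 6 were not called. In the brightest group, which held 6 of them, 24.3% rose and 38.2% fell. Beside PMAIP1, its antagonist MCL1 rose by 1.24, from 10.37, 10.32, 10.36 and 10.34 to 11.60, 11.61, 11.55 and 11.58, and the antiapoptotic BCL2L1 rose by 0.46. Among proapoptotic genes BOK fell by 0.20, BID fell by 0.15 and BCL2L11 (BIM) fell by 0.13. The TRAIL receptors TNFRSF10B and TNFRSF10A rose by 0.60 and 0.39, while the ligand TNFSF10 fell by 0.74 and the decoy receptor TNFRSF10D fell by 0.59. The caspase inhibitors BIRC2 and XIAP rose by 0.40 and 0.36. Of 16 death receptor, ligand and caspase regulator genes 8 rose (50%) and 4 fell (25%), and 6 were in the brightest group.

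Cholesterol synthesis and uptake genes, which the factor SREBP2 controls, fell in 19 of 24 cases and rose in 0 (median -0.67), beside 18.4% of all genes and 38.2% of the brightest group. HMGCS1, the HMG-CoA synthase, had 11.24, 11.19, 11.20 and 11.22 in complete medium and 10.03, 10.00, 9.98 and 9.97 without histidine, and the lanosterol synthase LSS had 10.41, 10.35, 10.43 and 10.41 and 9.24, 9.32, 9.25 and 9.37. The groups were separate for both. IDI1 fell by 1.03 and the squalene epoxidase SQLE fell by 0.95. The regulators SREBF2 at -0.07 (adjusted p = 0.122) and SCAP at -0.03 (adjusted p = 0.507) and the enzymes GGPS1 at -0.13 (adjusted p = 0.0962) and PMVK at 0.02 (adjusted p = 0.686) were not called. The sterol element, searched as TCACNCCAC on both strands, was in 1 of the 22 promoter windows of this list (4.55%), that of SREBF2, beside 176 of 15247 windows (1.15%). Of 21 fatty acid and triglyceride genes 13 fell (61.9%) and 4 rose, and 12 were in the brightest group. The lipase PNPLA3 fell by 0.81, the acetyl-CoA synthetase ACSS2 fell by 0.73, the elongase ELOVL6 fell by 0.67, the desaturase FADS2 fell by 0.53 and fatty acid synthase FASN fell by 0.51. The acyltransferases of triglyceride assembly rose, GPAM by 0.55 and DGAT2 by 0.34, as did SREBF1 by 0.28. In fatty acid oxidation 15 of 29 fell (51.7%), and 12 of the 29 were in the brightest group. The fatty acid binding protein FABP1 was at -0.75, the peroxisomal enzyme EHHADH at -0.58 and the nuclear receptor PPARA at -0.34. The lipid droplet coat gene PLIN2 rose by 0.45.

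Of 32 ER chaperone and unfolded protein response genes 25 fell (78.1%) and 4 rose, and 26 were in the brightest group, in which 38.2% fell. HSPA5 (BiP) had 13.09, 13.08, 13.06 and 13.10 in complete medium and 12.55, 12.59, 12.57 and 12.56 without histidine and fell by 0.51. The COPII coat gene SEC24D fell by 0.99, MANF fell by 0.69, DNAJC3, an inhibitor of PERK, fell by 0.55 and the translocon subunit SEC61B fell by 0.53. The genes that rose were ERN1, XBP1 by 0.39, ATF6 by 0.34 and HERPUD1 by 0.12, whereas the third stress sensor of this compartment, EIF2AK3, fell. Of 25 heat shock proteins and cochaperones 15 fell (60%, with 16 in the brightest group), with DNAJA1 at -0.63, the mitochondrial HSPE1 at -0.56 and HSPH1 at -0.46, and HSPA13 rose by 0.63. Proteasome subunits fell in 25 of 40 cases and rose in 0, led by PSMA3 at -0.55 and PSMD10 at -0.52, with a median of -0.12. The share that fell was 62.5% beside 38.2% in the brightest group, which held 29 of them.

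**Figure D3:**
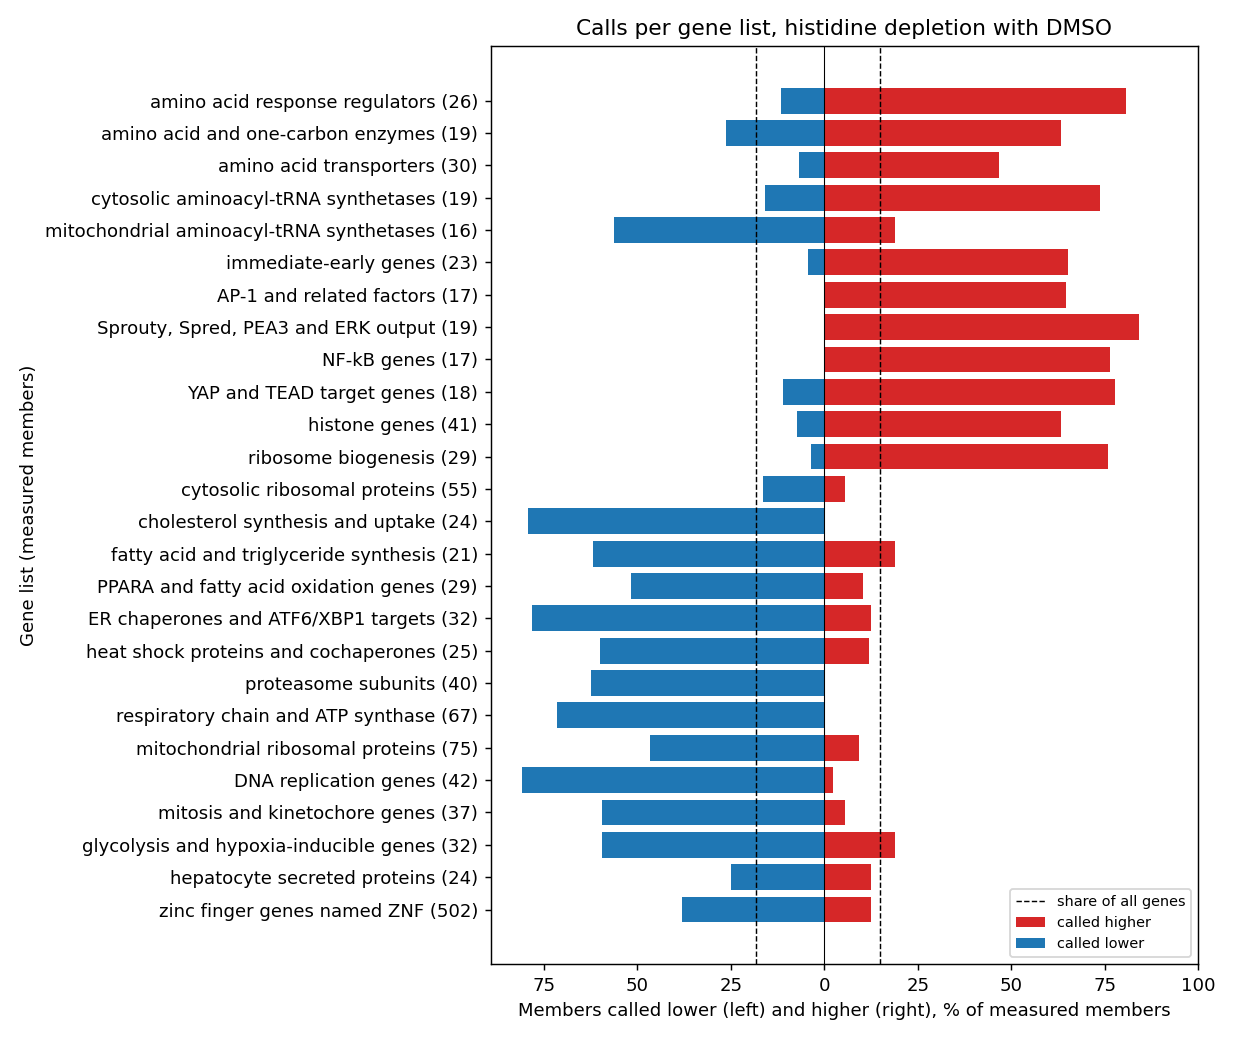
Share of measured members called lower (blue, left) and higher (red, right) in percent (x axis) for 26 gene lists (y axis, measured members in brackets), with dashed lines at the shares of all genes, 14.8% higher and 18.4% lower. Regulators of the amino acid response reach 80.8% higher and DNA replication genes 81% lower, and cytosolic ribosomal proteins stay below both lines.

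Cytosolic ribosomal proteins were called higher in 3 and lower in 9 of 55 cases (median -0.018), fewer than the brightest group, to which 39 belong. RPS27L, a p53-inducible paralogue, fell by 0.39 and RPL22L1 rose by 0.24. Ribosome biogenesis genes rose in 22 of 29 cases, beside 24.3% of the brightest group. The helicase DDX21 had 11.14, 11.13, 11.13 and 11.11 in complete medium and 11.74, 11.67, 11.66 and 11.65 without histidine and rose by 0.55. GNL2 rose by 0.49, UTP15 by 0.48, RRP12 by 0.47 and RRN3, the initiation factor of RNA polymerase I, by 0.46. The rRNA methyltransferase fibrillarin FBL fell by 0.14. Of 27 initiation and elongation factors 7 rose (25.9%), 3 fell (11.1%) and 17 were not called. In the brightest group, which held 24 of them, 24.3% rose and 38.2% fell. EIF1, which sets start codon stringency, rose by 0.49.

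Of 67 respiratory chain and ATP synthase subunits 48 fell (71.6%) and 0 rose, with a median of -0.14, and 37 were in the brightest group, in which 38.2% fell. NDUFA2 of complex I fell by 0.64, from 9.32, 9.21, 9.37 and 9.28 to 8.62, 8.65, 8.59 and 8.73, and COX6B1 of complex IV fell by 0.62. Mitochondrial ribosomal proteins fell in 35 of 75 cases (46.7%, with 46 in the brightest group), led by MRPS25 at -0.39, and MRPS30 rose by 0.27. Glycolytic and hypoxia-inducible genes fell in 19 of 32 cases (59.4%), and 22 were in the brightest group. PFKFB4 fell by 0.67, NDRG1 fell by 0.63, ALDOC fell by 0.60 and the mitophagy receptor BNIP3 fell by 0.51, whereas VEGFA rose by 1.01, hexokinase HK2 by 0.80 and HIF1A by 0.36.

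DNA replication genes fell in 34 of 42 cases (81%, median -0.34), beside 18.4% of all genes and 38.2% of the brightest group, which held 28 of them. The sliding clamp PCNA had 11.07, 11.04, 11.04 and 11.03 in complete medium and 10.18, 10.23, 10.21 and 10.31 without histidine and fell by 0.81 with no overlap. The origin recognition gene ORC1 fell by 0.80, the flap endonuclease FEN1 fell by 0.74, MCM2 fell by 0.68 and the polymerase subunit POLE2 fell by 0.60, and ORC6 rose by 0.23. Mitotic genes fell in 22 of 37 cases (59.5%, median -0.15), beside the same shares and with 29 in the brightest group. Among them were KIF20A at -0.57, SPC24 at -0.52 and AURKB at -0.46, and NDC80 rose by 0.40. In G1 control the ubiquitin ligase subunit SKP2 fell by 0.72, and its substrate CDKN1B (p27) rose by 0.52, while the pocket protein RBL2 fell by 0.41, E2F3 rose by 0.58 and CDKN2B rose by 0.43.

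Of 41 histone genes 26 rose and 3 fell (median 0.20). H2AC6 had 6.75, 6.61, 6.66 and 6.59 in complete medium and 7.49, 7.40, 7.33 and 7.46 without histidine and rose by 0.77, H1-6 by 0.58 and H2BC3 by 0.53. The variant H2AX fell by 0.22 and H2AZ2 fell by 0.14. Clustered histone genes are near-identical to each other, so the assignment to single members is uncertain.

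Liver genes showed a mixture. Of 15 hepatocyte transcription factors 7 rose (46.7%) and 4 fell (26.7%), and 8 were in the brightest group. ONECUT1 (HNF6) fell by 0.61, FOXA1 fell by 0.38 and GATA6 fell by 0.25, and HNF4G rose by 0.49, FOXA3 by 0.42 and the repressor NR0B2 by 0.33. Of 24 secreted hepatocyte proteins 3 rose (12.5%) and 6 fell (25%), beside 14.8% and 18.4% of all genes. In the brightest group, which held 15 of them, the shares were 24.3% and 38.2%. IGFBP1, an insulin-like growth factor binding protein raised in fasting, had 11.35, 10.97, 11.09 and 11.26 in complete medium and 12.20, 12.08, 11.99 and 11.99 without histidine and rose by 0.90, and ANGPTL8 rose by 0.62, while APOA1 fell by 0.26 and ALB fell by 0.14. The carboxypeptidase CPB2 fell by 0.73, F11 fell by 0.40 and fibrinogen gamma FGG fell by 0.33, and F7 rose by 0.48. Haptoglobin HP fell by 0.55 and SERPINA3 rose by 0.35.

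KLB, the coreceptor through which FGF19 and FGF21 act on hepatocytes, fell by 0.94 ± 0.0491 (adjusted p = 2.71e-10), with every depleted array below every control, while its ligand FGF21 rose by 0.34 and FGF19 was at 0.10 (adjusted p = 0.123). The bile acid exporter subunit SLC51B rose by 0.70. Of 24 drug metabolism genes 6 rose (25%) and 9 fell (37.5%), beside 14.8% and 18.4% of all genes, and 7 were in the brightest group. SULT2A1 fell by 0.71 and GSTA1 fell by 0.56, whereas the aryl hydrocarbon receptor AHR rose by 0.79 and its target CYP1A1 by 0.51. Other AHR targets in this list were not called. Among glucose production and FOXO genes tyrosine aminotransferase TAT rose by 0.83, FOXO3 by 0.78 and FOXO1 by 0.34, and the gluconeogenic enzyme PCK1 was at -0.09 (adjusted p = 0.0552). In iron handling STEAP3 fell by 0.35 and ceruloplasmin CP fell by 0.34, and hepcidin HAMP rose by 0.21.

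Several smaller regulatory families contained large changes. TXNIP, a thioredoxin-binding arrestin controlled by the MondoA and ChREBP factors, had 10.14, 9.97, 10.02 and 10.05 in complete medium and 11.39, 11.35, 11.30 and 11.34 without histidine and rose by 1.30. Its relative ARRDC4 went from 8.10, 7.92, 8.00 and 8.01 to 10.01, 10.03, 9.93 and 9.91, and 7 of 10 members of the list rose and none of the 10 was called lower. In the MYC network the antagonist MXD1 rose by 1.53 and MYC by 0.84. Among clock genes the repressors NR1D1 and NR1D2 rose by 1.05 and 0.58, PER2 by 0.77 and NFIL3 by 0.72, while PER3 fell by 0.34 and DBP fell by 0.24. YAP and TEAD targets rose in 14 of 18 cases, with ANKRD1 at 1.46, NUAK2 at 1.09, AJUBA at 0.86 and CCN2 at 0.80, while the factors TEAD2 and WWTR1 (TAZ) were lower at -0.16 and -0.12. Of Wnt genes the R-spondin receptor LGR4 fell by 0.78 and its opponent RNF43 fell by 0.55, and AXIN2, a common readout of beta-catenin, was at -0.05 (adjusted p = 0.114). The adhesion genes SDC4 and ITGA2 rose by 1.01 and 0.82, in a list where 8 of 21 rose (38.1%) and 3 fell (14.3%). The progenitor-associated genes SOX4 and KRT23 rose by 0.69 and 0.63. Of the 13 biliary and progenitor genes 4 rose (30.8%), 1 fell (7.69%) and 8 were not called. In the brightest group, which held 7 of the 13 and 11 of the 21, 24.3% rose and 38.2% fell.

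The histone demethylase gene KDM7A had 9.22, 9.04, 9.13 and 9.16 in complete medium and 10.84, 10.79, 10.74 and 10.69 without histidine and rose by 1.63. KDM6B had 8.43, 8.37, 8.42 and 8.38 and 9.77, 9.86, 9.72 and 9.77 in the same order and rose by 1.38, its relative KDM6A rose by 0.60, KDM4A by 0.64 and the deacetylase SIRT1 by 0.58. KDM1A fell by 0.25 and HDAC1 fell by 0.16. Of 23 such genes 9 rose (39.1%) and 5 fell (21.7%), beside 14.8% and 18.4% of all genes, and 7 were in the brightest group.

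Autophagy genes rose in 13 of 35 cases (37.1%) and fell in 7 (20%), beside 14.8% and 18.4% of all genes. The brightest group held 13 of the 35. MAP1LC3B, the autophagosome membrane protein LC3B, had 10.87, 10.88, 10.90 and 10.87 in complete medium and 11.90, 11.82, 11.80 and 11.83 without histidine and rose by 0.96. The lysosomal transcription factor TFE3 rose by 0.56, GABARAPL1 by 0.44, the initiating kinase ULK1 by 0.36 and the receptor SQSTM1 by 0.33. The processing enzymes ATG4A and ATG4C were lower at -0.36 and -0.33, and GABARAPL2 at -0.26. Lysosomal genes fell in 9 of 25 cases (36%), a share close to the 38.2% of the brightest group, which held 19 of them, and ATP6V0E1 of the proton pump was at -0.29. In the NRF2 and glutathione list thioredoxin reductase TXNRD1 rose by 0.66, the glutamate-cysteine ligase subunits GCLC and GCLM by 0.60 and 0.49 and NFE2L2 by 0.40, whereas heme oxygenase HMOX1 fell by 0.27 and NQO1 was at -0.06 (adjusted p = 0.0599).

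RNA-processing lists held few large changes. The splicing kinase CLK1 rose by 0.59 and the splicing factor TRA2A by 0.45, and SRSF5 fell by 0.28. In nonsense-mediated decay SMG1 rose by 0.43 and SMG9 by 0.40, and 5 of 11 rose (45.5%). In the brightest group, which held 6 of them, 24.3% rose. The snoRNA host genes SNHG8 and EPB41L4A-AS1, whose spliced transcripts are decay substrates, rose by 0.82 and 0.50. Zinc finger genes of the ZNF series fell in 191 of 502 cases (38%) and rose in 63 (12.5%), although only 45 lay in the brightest group. ZNF483 had 7.58, 7.41, 7.52 and 7.48 in complete medium and 6.33, 6.46, 6.29 and 6.32 without histidine, ZNF114 fell by 0.65 and ZNF652 fell by 0.60, and ZNF146 rose by 0.57.

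Of 1056 measured miRNA genes 57 rose and 85 fell, smaller shares than among all genes, of which 14.8% rose and 18.4% fell. However, few of these loci were bright. Of a separate list of 1033 miRNA-named genes only 48 lay in the brightest group, and 5.52% rose and 7.74% fell. In the dimmest group of all genes the shares were 5.14% and 2.31%. The arrays measure transcribed RNA at these loci, and mature miRNAs were not measured. MIR29A had 3.84, 3.96, 3.79 and 4.18 in complete medium and 5.50, 5.21, 5.01 and 5.25 without histidine, a rise of 1.30, and MIR21 had 7.14, 6.85, 7.01 and 7.07 and 8.22, 8.21, 7.96 and 7.93, a rise of 1.06. In complete medium MIR29A lay in the dimmest group of all genes, which reached up to 5.315, and signal over background was not checked. MIR3189, which lies within GDF15, rose by 0.59 and MIR616, within DDIT3, rose by 0.35, while GDF15 and DDIT3 rose by 1.23 and 1.42. MIR608, within SEMA4G, fell by 1.06 and SEMA4G fell by 0.43. MIR616 and SEMA4G were chosen after their values were seen. Of 82 called miRNA genes with 1 measured host gene, 38 had a called host, and 33.3% of all genes were called. Of those 38, 22 moved in the host's direction, and whether this exceeds unrelated pairs was not tested. Hosts were matched by position without regard to strand, so some may lie on the opposite strand from the miRNA. Mature sequences from RefSeq (GRCh38.p14) are given for these loci with the seed, bases 2 to 8, in capitals, and no 2 of them share a seed.
hsa-miR-29a-3p: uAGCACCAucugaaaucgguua
hsa-miR-21-5p: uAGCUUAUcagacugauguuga
hsa-miR-3189-3p: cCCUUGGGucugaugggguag
hsa-miR-616-5p: aCUCAAAAcccuucagugacuu
hsa-miR-608: aGGGGUGGuguugggacagcuccgu

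The response without the MEK inhibitor was set beside the response with PD98059, which used other arrays and had 12% of genes called higher and 15.3% lower. The difference of the responses, PD98059 minus DMSO, was called for 1289 genes (5.74%), and for 3145 without replicate 3 of PD98059 without histidine, the array that stood apart, and 850 with arrays shifted to the same median. EGR1 rose by 3.52 with DMSO and had a change of 2.05 with PD98059, a difference of -1.47 ± 0.0673 (adjusted p = 5.34e-09). The differences were -1.21 for SLC22A15 (adjusted p = 2.6e-06), -0.97 for ERN1 (adjusted p = 9.99e-07) and -1.52 for CXCL8 (adjusted p = 3.21e-08). Of the lists above, the difference was called for 11 of 19 ERK output genes, 14 of 26 amino acid response regulators, 10 of 23 immediate-early genes, 8 of 15 hepatocyte factors, 12 of 42 DNA replication genes and 70 of 502 ZNF genes. It was called for 0 of 24 cholesterol genes, 0 of 40 proteasome subunits, 0 of 55 ribosomal proteins and 0 of 16 mitochondrial synthetases. Without the array that stood apart these counts were 13, 17, 14, 9, 22 and 146 for the first 6 lists and 5, 1, 1 and 2 for the other 4, in the same order. The counts give no direction, and the lists did not shift alike. The median change of ERK output genes was 0.267 with DMSO and 0.447 with PD98059. For amino acid response regulators it was 0.891 and 0.573, and for immediate-early genes 0.322 and 0.089, in the same order. HMGCS1 changed by -1.22 with DMSO and -1.29 with PD98059, a difference of -0.07 ± 0.0514 (adjusted p = 0.539), and a p above the threshold does not show that the responses were alike. HSPA1A was at -1.57 with PD98059, a difference of 0.06 ± 0.0599 (adjusted p = 0.722).

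**Figure D4:**
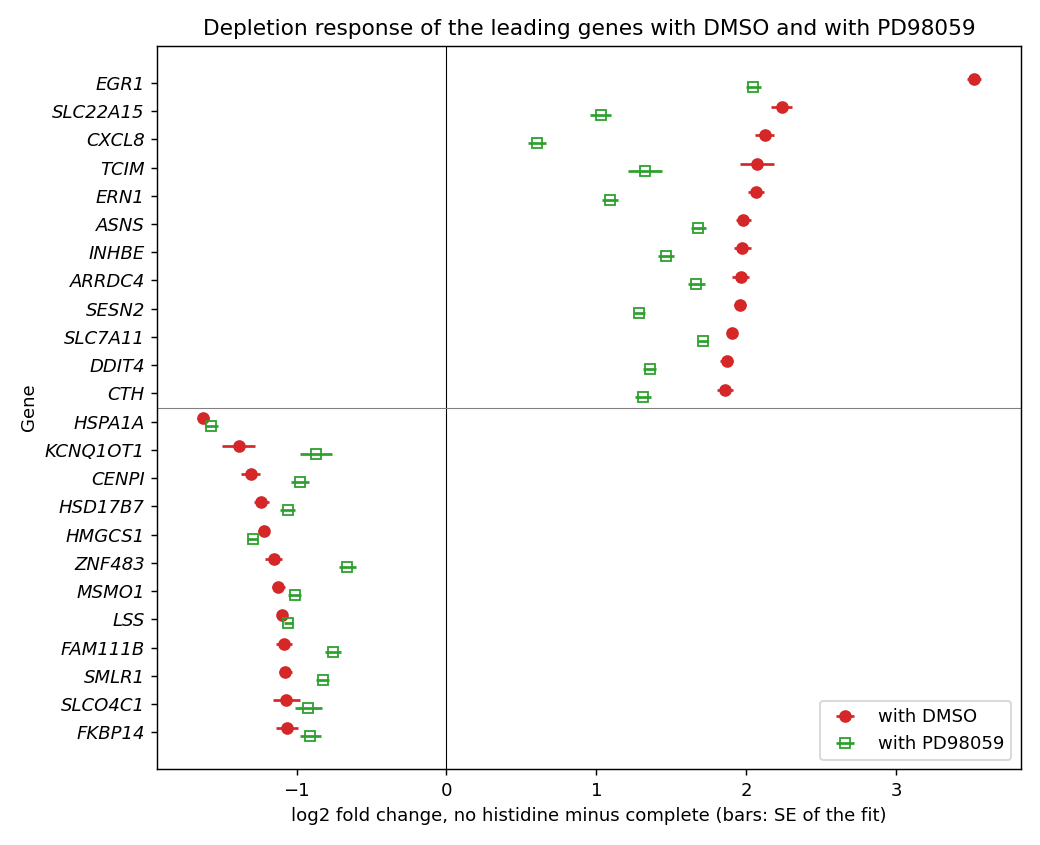
Log2 fold change of histidine depletion (x axis) for the 24 leading genes (y axis) with DMSO (filled red circles) and with PD98059 (open green squares), with bars for the SE of the fit. The genes were chosen for their DMSO response, and EGR1, SLC22A15 and CXCL8 lie farthest apart while HSPA1A, HMGCS1 and LSS lie close together.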

How the data were processed

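RNA of 16 HepG2 cultures was measured on 1-colour Affymetrix arrays, from 100 ng of total RNA per array. The deposited values are log2 expression values that the authors made with RMA and Partek 6.6 on build hg19, per the submitters' processing notes. RMA settings are not given in the sources used here, and RMA usually quantile-normalizes arrays and compresses small signals. Signal over background was not checked, since no scanner output was used here, and precision is limited by the number of arrays.

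Of 70459 rows, 23780 had 1 gene symbol, 1543 had several and 45136 were unnamed. Where a symbol had several rows (479 symbols), the brightest on average stood for it, giving 22464 genes. A limma 3.58.1 model in R 4.3.3 estimated the mean of each group from all 16 arrays (eBayes without trend). P-values were adjusted by Benjamini-Hochberg over all genes and called under 0.05. The fit was tested on simulated data. Values after ± are SEs of the fit.

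The members, gene lists and comparisons were chosen with earlier results of these data known. The rule for named genes took the 12 highest and 12 lowest called genes whose arrays did not overlap and with a higher mean in 1 group above the overall median value, without uncharacterised loci, small RNAs and pseudogenes. It added from each list up to 6 called members per direction and up to 4 not called, and every histidine-handling and amino acid response gene. List counts carry no test of their own. Promoter and miRNA sequences came from RefSeq (GRCh38.p14), matched by symbol. Alternatives were a replicate block, only the 8 arrays, array weights, trend and robust variance, a dim-gene filter, 2 other normalizations, other row choices, a stricter threshold and leaving out each array.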

Additional observations from a re-analysis of the deposited data

Results flagged for a closer look

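The response to depletion differed between PD98059 and DMSO, by the test of the difference itself (limma, adjusted p under 0.05), for 137 of the 381 genes named in the text, which were largely chosen for their DMSO response. Values are log2, the depletion response with PD98059 minus that with DMSO. They are not differences of level, and the effect of PD98059 in complete medium was not compared here. Among the regulators of the amino acid response the difference was -0.83 for PPP1R15A, -0.70 for VLDLR, -0.67 for SESN2, -0.56 for ATF3, -0.54 for TRIB1, -0.52 for DDIT4, -0.49 for BTG1, -0.45 for NDRG1, -0.41 for GADD45A, -0.38 for CHAC1, -0.24 for TRIB3, -0.23 for ATF4, -0.20 for GDF15 and -0.20 for NUPR1. For amino acid enzymes, transporters, synthetases and the eIF2 cycle it was -0.59 for ARG2, -0.55 for CTH, -0.38 for SLC6A9, -0.37 for NAGS, -0.36 for SLC1A2, -0.32 for GOT1, -0.30 for ASNS, -0.27 for CARS1, -0.26 for PPP1R15B, -0.24 for SLC7A1, -0.23 for SARS1, -0.19 for SLC7A11, -0.18 for SLC36A1, -0.16 for PCK2, -0.15 for MARS1, 0.14 for SHMT1, 0.16 for EIF2B1 and 0.23 for AMDHD1. Among amino acid sensing, autophagy and glutathione genes the difference was -0.49 for MAP1LC3B, -0.36 for GABARAPL1, -0.36 for TFE3, -0.32 for GCLC, -0.27 for TXNRD1, -0.27 for ULK1, -0.25 for GCLM, -0.18 for SQSTM1, 0.19 for CASTOR2, 0.28 for FNIP2 and 0.30 for ATG4C. For immediate-early, AP-1, KLF and ERK output genes it was -1.47 for EGR1, -1.21 for LIF, -0.98 for EREG, -0.78 for MCL1, -0.72 for JUN, -0.68 for DUSP1, -0.68 for HBEGF, -0.66 for CCN1, -0.65 for JUNB, -0.57 for KLF6, -0.47 for FOS, -0.45 for FOSL1, -0.44 for SPRY4, -0.42 for KLF5, -0.37 for TNFRSF12A, -0.34 for IL11, -0.31 for PHLDA1, -0.19 for SHC1, -0.15 for EPHA2, -0.14 for ERRFI1, 0.22 for DUSP7, 0.42 for DUSP6, 0.52 for CCN2 and 0.57 for SGK1. Among cytokine, NF-kB and TGF-beta family genes the difference was -1.52 for CXCL8, -0.51 for INHBE, -0.44 for TGFB1, -0.32 for NFKBIA, -0.23 for CXCL2, -0.23 for NFKB1, 0.18 for ID1, 0.32 for INHBC and 0.33 for SMAD6. For p53, apoptosis and cell cycle genes it was -0.53 for PMAIP1, -0.42 for PLK3, -0.40 for TNFRSF10B, -0.28 for CDKN2B, -0.25 for TNFRSF10A, -0.23 for CDKN1A, 0.18 for MCM2, 0.28 for DDB2, 0.28 for ORC1 and 0.37 for SKP2. Among lipid, chaperone, ribosome and mitochondrial genes the difference was -0.97 for ERN1, -0.41 for PLIN2, -0.32 for HSPA13, -0.26 for ATF6, -0.20 for RRP12, -0.18 for ACSS2, 0.21 for XBP1, 0.23 for MRPS25, 0.32 for PNPLA3 and 0.51 for EHHADH. For liver, glucose and arrestin genes it was -0.89 for IGFBP1, -0.49 for CYP1A1, -0.43 for TAT, -0.31 for TXNIP, -0.30 for ARRDC4, -0.29 for FOXA3, -0.29 for FOXO3, -0.23 for PCK1, 0.18 for FOXA1, 0.21 for FOXO1, 0.22 for HP, 0.23 for GATA6, 0.44 for ONECUT1 and 0.48 for NR0B2. Among the MYC, clock, Wnt, YAP, adhesion, progenitor and demethylase lists the difference was -0.92 for MXD1, -0.69 for SDC4, -0.66 for ITGA2, -0.65 for KDM6B, -0.52 for NR1D1, -0.43 for SOX4, -0.36 for NFIL3, -0.35 for KDM4A, -0.26 for NUAK2, -0.23 for KRT23, 0.35 for ANKRD1 and 0.40 for RNF43. Of the remaining genes it was -1.21 for SLC22A15, -0.91 for MIR29A, -0.74 for TCIM, -0.57 for HEY1, -0.33 for CLK1, -0.33 for JAG1, -0.20 for PDGFRB, -0.20 for ZNF114, 0.20 for SEMA4G, 0.25 for SMLR1, 0.33 for CENPI, 0.33 for FAM111B, 0.34 for ZNF652, 0.47 for TET1 and 0.49 for ZNF483.

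In 33 of 762 groups of 4 arrays (4.33%) 1 array lay far from the other 3 by Dixon's criterion, and chance gives about 1 in 20 such groups. Of these, 15 were replicate 2 in complete medium. Replicate 1 in complete medium stood apart at 10.73 for GABARAPL2, 8.21 for JDP2, 12.46 for NQO1 and 9.85 for UTP15. Replicate 2 in complete medium stood apart at 10.56 for CEBPA, 7.59 for CHAC1, 8.71 for E2F3, 7.14 for FOSB, 12.28 for GDF15, 8.42 for GPT, 7.94 for HNF4G, 9.08 for ORC1, 11.33 for QARS1, 7.08 for SAMTOR, 5.98 for SLC22A15, 10.95 for SLC7A6, 7.64 for SOCS2, 9.32 for SPRY1 and 10.52 for TNFRSF10B. Replicate 3 in complete medium stood apart at 11.38 for MSMO1. Replicate 4 in complete medium stood apart at 11.29 for SDC4. For replicate 1 without histidine the value was 12.86 for ALB, 9.32 for MANF, 10.34 for PSMD10 and 10.13 for SRF. For replicate 2 without histidine the value was 10.74 for HSPH1. For replicate 3 without histidine the value was 8.92 for ANGPTL8, 10.60 for DUSP1, 7.74 for PER3, 7.89 for TCIM and 10.22 for UTP15. For replicate 4 without histidine the value was 8.41 for ACSS2 and 8.81 for PNPLA3. What set these arrays apart was not tested.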

How the results depend on the processing

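Array weights gave 5570 higher and 5179 lower calls with DMSO, so that higher calls were the more numerous, unlike the 3333 and 4142 reported, and 4615 calls in the difference of responses, arrays shifted to the same median gave 850 in the difference, and an adjusted p under 0.01 gave 592. Testing every row of the table, which holds more features, gave 13633 calls, 5478 higher and 8155 lower, with 976 at least 1.5-fold. Leaving out single arrays gave 6608 to 9063 calls, 2903 to 4419 higher, 3697 to 4644 lower, 410 to 437 at least 1.5-fold, and 916 to 3145 in the difference, the last without replicate 3 of PD98059 without histidine. Without that array 1 NF-kB gene was called lower and 95 of 1033 miRNA-named genes higher. For the calls with DMSO, but not for the difference, omitting the PD98059 arrays was chosen after seeing the data. The other causes were not tested. Of 381 genes named in the text, 347 kept direction and call under every alternative run for them, and no called gene changed sign. The genes that lost a call in the omissions were AMDHD1, CNDP2, HARS2, KDR and SLC36A1. With the replicate number as a block there were 8048 calls, 3756 higher and 4292 lower, 425 at least 1.5-fold, and 1492 in the difference. Same-numbered arrays had correlations of deviations of 0.0975, -0.297, -0.201 and 0.12, so the numbers were not taken to pair the samples. The largest correlation between the media, 0.431, was that of replicate 2 in complete medium with replicate 3 without histidine, and what these arrays shared was not tested.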

Other observations

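Some genes outside the lists were chosen after their values were seen, and they are given singly. JAG1, a Notch ligand gene, rose by 1.41, and HEY1 and HES1, transcriptional repressors, rose by 1.10 and 1.01. NOTCH2 fell by 0.24 and NRARP fell by 0.19, while the receptor genes NOTCH1, NOTCH3 and NOTCH4 were at 0.03, 0.05 and 0.06 and were not called. No share of the pathway follows from these genes, since 33.3% of all genes were called. TET1, which oxidises methylcytosine in DNA, fell by 1.02.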
